A study of Homo sapiens with 3 samples.

Results

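The mitochondrial ribosomal protein genes were followed in DU145, a line of human prostate cancer cells, after knockdown of the tetraspanin TSPAN18. Members were the rows whose gene name is MRPL or MRPS, a number and an optional A, B or C, and which are listed in all 3 deposited tables. The rule uses names only and took 78 of 22773 genes, 49 named for the large subunit (MRPL) and 29 for the small subunit (MRPS). There was 1 library with TSPAN18 siRNA 1, 1 with TSPAN18 siRNA 2 and 1 with a negative control siRNA. Each came from DU145 cells 48 h after lipid transfection with 75 nM siRNA. The labels name no separate cultures within a condition, so no siRNA has a replicate of its own, and intervals cover counting error only.

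Mitochondria carry their own ribosome, which translates the few membrane proteins of oxidative phosphorylation that mitochondrial DNA still encodes. Its RNAs come from mitochondrial DNA, while its proteins come from nuclear genes, are made in the cytosol and are imported. The small subunit decodes the message and the large subunit forms the peptide bond. Many of the proteins descend from bacterial ribosomal proteins, and others are found only in mitochondria. MRPS18A and MRPS30 are named for the small subunit but sit in the large subunit in solved structures, and MRPS36 is now known as a part of the 2-oxoglutarate dehydrogenase complex.

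TSPAN18, the targeted gene, stood at 1.37 CPM (siRNA 1) and 1.51 CPM (siRNA 2), against 16.9 CPM in control cells, where CPM is the read count relative to the library total. These are 8.09% and 8.93% of the control value. The libraries held 29913825 read pairs with siRNA 1, 29766559 with siRNA 2 and 30058731 with the control siRNA. Of 6 markers of DU145 identity, 5 were listed in all tables and KRT5 was not. Their summed level was 1074 CPM (siRNA 1) and 993.6 CPM (siRNA 2), against 1154 CPM in control cells. These sums include VIM, a mesenchymal rather than epithelial marker, at 497.2 and 431.8 CPM with the siRNAs, against 495.4 CPM. Of the epithelial markers, CDH1 was at 12.2 and 5.54 CPM with the siRNAs, against 5.72 CPM. EPCAM was at 8.59 and 11.1 CPM, against 13.7 CPM. Summed levels of the fibroblast markers were 3.41, 6.85 and 7.42 CPM with siRNA 1, siRNA 2 and the control siRNA, from 2 of 5 markers listed. Those of the endothelial markers were 1.10, 1.48 and 0.699 CPM, from 4 of 4 listed, and none of 5 haematopoietic markers was listed. In such bulk libraries, fewer cells of a type and less RNA per cell cannot be told apart.

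All 78 members passed the filter of a mean of at least 1 CPM, which left 14185 genes for testing. No member was 2-fold higher or lower than the control with either siRNA. The log2 ratios (of CPM + 1, a scale that understates changes of low genes) ran from −0.88 up to 0.67 for siRNA 1. For siRNA 2 they ran from −0.59 up to 0.48. With limma, which set both siRNA libraries against the control, 0 members and 0 of all genes passed an adjusted p of 0.05. The smallest adjusted p of a member was 0.992, and 0 members but 691 genes had an unadjusted p under 0.05. Run on the read pairs, the quasi-likelihood test of edgeR also called 0 members and 0 genes, with 1 member and 770 genes at an unadjusted p under 0.05. DESeq2 called 0 members and 13 genes (0.0916% of those tested). The lone control is assumed in limma to vary like the siRNA libraries. TSPAN18 itself, at 8.09% and 8.93% of the control, did not pass limma either. A member that does not pass is therefore not shown to be unchanged.

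Genes of the large subunit summed to 2023 CPM (siRNA 1) and 2181 CPM (siRNA 2), against 2234 CPM in control cells. This is 90.6% of the control sum with siRNA 1 and 97.6% with siRNA 2. Genes of the small subunit summed to 1405 CPM (siRNA 1) and 1530 CPM (siRNA 2), against 1541 CPM in control cells, or 91.2% and 99.3% of it. In CPM as deposited, the siRNA 1 sums of both subunits were the lowest of the 3 libraries. This order depends on the scaling: median-of-ratios scaling gave large subunit sums of 2140 (siRNA 1) and 2111 (siRNA 2), against 2182 in control cells, and small subunit sums of 1486 and 1481, against 1505, so that siRNA 2 was lowest.

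The median log2 ratio with siRNA 1 was −0.14 over the large subunit and −0.16 over the small subunit, beside −0.10 over all tested genes. With siRNA 2 it was 0.01 and −0.01, beside 0.01 over all tested genes. The subunits thus had medians close to each other and to that of all genes with either siRNA. Below the control in CPM as deposited stood 35 large and 24 small subunit genes with siRNA 1. This is 75.6% of the members beside 59.5% of all tested genes. With siRNA 2 these numbers were 24 and 15, which is 50% beside 48.9%. Such counts depend on the scaling. Median-of-ratios scaling gave siRNA 1 medians of −0.030 (large) and −0.055 (small), beside 0.0054 over all tested genes.

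At a size of 1.2-fold, 28 members were lower with siRNA 1 and 6 higher. These shares are 35.9% and 7.69% of the members, beside 35.1% and 18.3% of all tested genes. With siRNA 2, 13 members were lower and 9 higher, 16.7% and 11.5%, beside 22.2% and 23.2% of all tested genes. Within 1.2-fold of the control were 44 of the 78 members with siRNA 1 and 56 with siRNA 2. Among all 14185 tested genes these numbers were 6616 and 7747. At 2-fold the background was 4.21% of genes lower and 0.677% higher with siRNA 1, and 1.16% lower and 1.1% higher with siRNA 2. Median-of-ratios scaling, under which the median of all genes with siRNA 1 is 0.01 in place of −0.10, gave 17 members lower and 8 higher with siRNA 1, and 3868 genes lower and 3643 higher among all genes, in place of 4972 and 2597. Both siRNA ratios use the same control library, so they are not independent of each other.

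**Figure D1:**
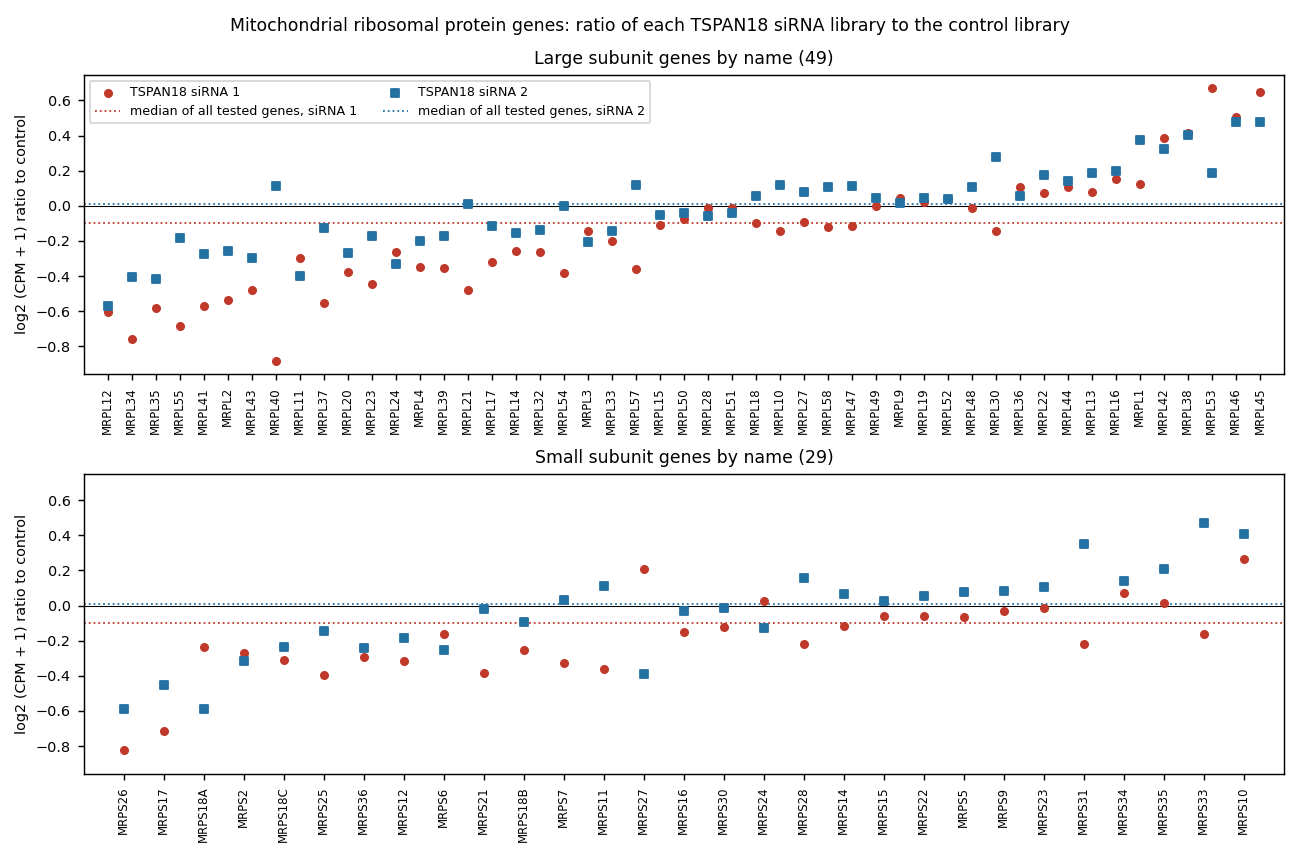
Each member's log2 (CPM + 1) ratio to the control library with siRNA 1 (circles) and siRNA 2 (squares), for 49 large subunit genes above and 29 small subunit genes below, in order of their mean ratio. Dotted lines give the medians of all 14185 tested genes, −0.10 with siRNA 1 and 0.01 with siRNA 2; most members lie near them, MRPL12, MRPS26 and MRPS17 lie lowest by mean ratio and MRPL45 and MRPL46 highest.

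**Figure D2:**
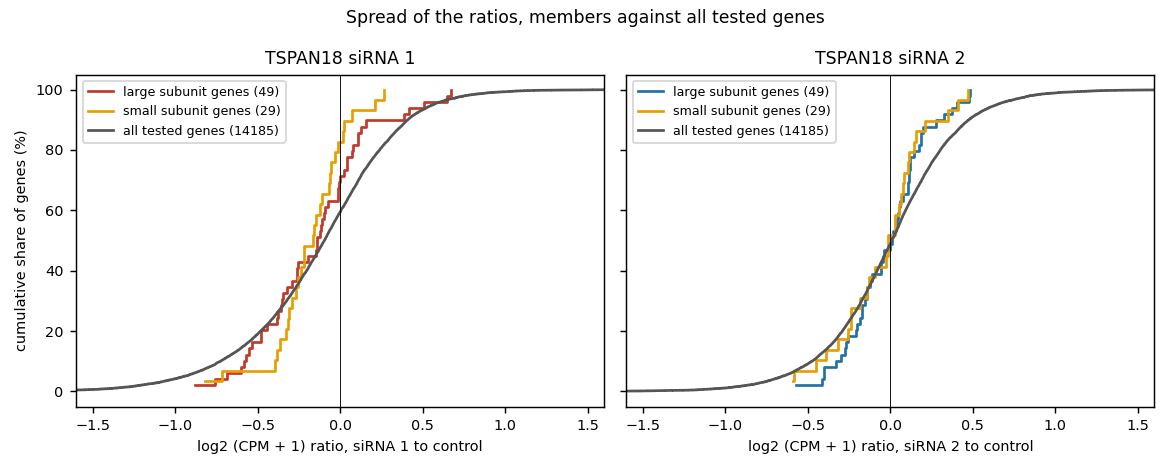
Cumulative share of genes (%) by log2 (CPM + 1) ratio to the control, with siRNA 1 on the left and siRNA 2 on the right, for large subunit genes, small subunit genes and all tested genes. In CPM as deposited, the members' curves with siRNA 1 reach 0 after more genes than the curve of all genes, 75.6% beside 59.5%. With siRNA 2 the curves cross 0 at about the same place.

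Promoter windows of the members (from 250 bases before to 50 after the annotated start, RefSeq, GRCh38.p14) were searched for the letters of 3 factors of mitochondrial and growth genes. Windows on chromosome 8 were left out, so MRPL13, MRPL15 and MRPS28 were not searched. The other chromosomes gave 85 windows for 69 of the 78 members. The letters AAGATGGC, the core bound by YY1, stood on either strand in 23 of the 85 windows (27.1%), beside 4.70% of 14618 windows of tested genes and 2.89% of all 35116 windows searched. CCGGAAGT, an ETS core as bound by GABPA, was in 14 windows (16.5%, beside 7.33% and 4.14%). GCGCANGCGC, the letters of NRF1, was in 10 (11.8%, beside 9.80% and 5.78%). A match is a description of letters and not a binding site, and several windows can belong to 1 gene.

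The 21 members with the YY1 letters had median log2 ratios of −0.0017 with siRNA 1 and 0.03 with siRNA 2. The 48 without them had −0.18 and 0.01. With siRNA 1, 3 of the 21 and 20 of the 48 were at least 1.2-fold lower (35.1% of all tested genes were), and 5 and 1 at least 1.2-fold higher (18.3% of all). With siRNA 2, 3 and 9 were lower (22.2% of all) and 5 and 4 higher (23.2% of all). The split was made after the values were seen and carries no test.

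The windows of the members with the highest and the lowest mean ratio, MRPL45 and MRPS26, are shown with that of MRPL46, whose start lies 320 bases from that of MRPS11 on the other strand. Capitals mark the letters of YY1 and, in MRPL45 far upstream, those of NRF1. MRPL45 is at chr17:38296918-38297217 (plus strand), MRPL46 at chr15:88467339-88467638 (minus strand) and MRPS26 at chr20:3045802-3046101 (plus strand), all on GRCh38.p14, and each is written 5′ to 3′ on the strand of its gene.
MRPL45: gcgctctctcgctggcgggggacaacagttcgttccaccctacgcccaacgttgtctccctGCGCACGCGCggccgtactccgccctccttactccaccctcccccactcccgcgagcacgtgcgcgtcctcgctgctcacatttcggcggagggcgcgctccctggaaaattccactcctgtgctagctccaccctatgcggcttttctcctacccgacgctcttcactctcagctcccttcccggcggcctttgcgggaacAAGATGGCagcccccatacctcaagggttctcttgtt
MRPL46: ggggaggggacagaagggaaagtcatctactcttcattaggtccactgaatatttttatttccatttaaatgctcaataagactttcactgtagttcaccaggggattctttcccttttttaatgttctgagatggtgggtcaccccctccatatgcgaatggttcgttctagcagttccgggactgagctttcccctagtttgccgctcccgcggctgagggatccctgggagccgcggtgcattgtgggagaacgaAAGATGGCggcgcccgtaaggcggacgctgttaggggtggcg
MRPS26: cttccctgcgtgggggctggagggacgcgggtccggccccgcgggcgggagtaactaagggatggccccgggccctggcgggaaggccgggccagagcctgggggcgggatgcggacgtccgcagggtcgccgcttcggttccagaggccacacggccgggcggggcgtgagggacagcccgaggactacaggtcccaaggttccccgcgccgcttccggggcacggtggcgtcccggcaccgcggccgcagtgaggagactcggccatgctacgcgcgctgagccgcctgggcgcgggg

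In both MRPL45 and MRPL46 the YY1 letters lie just after the annotated start, and the MRPS26 window holds none of the 3 motifs. The YY1 letters were not limited to members with high ratios. The window of MRPS12, not shown, holds them far upstream on the opposite strand. Its log2 ratios were −0.32 with siRNA 1 and −0.18 with siRNA 2. Mean log2 ratios of the 21 members with the letters ran from −0.41 up to 0.56. Those of the 48 without them ran from −0.70 up to 0.43. MRPL46 and MRPS11, the counterpart of bacterial S11, are divergent neighbours with unlike values. These neighbours and the pair of MRPS12 and SARS2 were picked after their values were seen. MRPS11 stood at 39.7 CPM (siRNA 1) and 55.6 CPM (siRNA 2), against 51.4 CPM in control cells. Its log2 ratios were −0.36 and 0.11, while those of MRPL46 were 0.50 and 0.48. MRPL46 had 158, 154 and 103 read pairs with siRNA 1, siRNA 2 and the control siRNA. Another gene overlaps 71.05% of its main transcript, so its level is uncertain. MRPS12, a protein of the decoding centre, starts 181 bases from SARS2, the mitochondrial seryl-tRNA synthetase. It was at 54.3 and 59.6 CPM with the siRNAs, against 67.8 CPM in the control. SARS2 was at 1.47 and 1.04 CPM, against 0.932 CPM, close to the filter of 1 CPM. The log2 ratios of SARS2 were 0.36 with siRNA 1 and 0.08 with siRNA 2, so the second lay near the control. Other divergent pairs of members are not shown here.

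Members with a bacterial counterpart and those without were described apart, a split made after their values were seen. The first group holds MRPL1 to MRPL36, MRPS2 to MRPS21, MRPL47, MRPS24 and MRPS28, 47 genes in all. Its median log2 ratio was −0.20 with siRNA 1 and −0.05 with siRNA 2. The 31 genes without a counterpart had medians of −0.08 and 0.05. With siRNA 1, 17 of the 47 and 11 of the 31 were at least 1.2-fold lower, shares near the 35.1% of all tested genes, and 1 and 5 at least 1.2-fold higher, beside 18.3% of all. With siRNA 2, 9 and 4 were lower, beside 22.2% of all, and 3 and 6 higher, beside 23.2%. No test was made of this split.

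Among the small subunit genes, MRPS26 (ENSG00000125901), a protein of the mitochondrial ribosome with no bacterial counterpart, had the lowest mean ratio. It stood at 18.7 CPM (siRNA 1) and 22.2 CPM (siRNA 2), against 33.8 CPM in control cells. Both siRNA libraries lay below the control, at 55.3% (95% exact interval 49.8 to 61.4) and 65.6% (59.4 to 72.5) of it. The mean log2 ratio was −0.70 ± 0.17 (SD, n = 2 siRNAs) and did not pass limma (adjusted p = 0.992). MRPS17, the counterpart of bacterial S17, was at 4.25 and 5.31 CPM with the siRNAs, against 7.62 CPM in the control. Exons of other genes overlap 31.6% of its main transcript.

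The counterpart of bacterial S18 is present as 3 paralogs. MRPS18A stood at 30.02 CPM (siRNA 1) and 23.3 CPM (siRNA 2), against 35.5 CPM in control cells. MRPS18B had the highest level, at 83.7 and 93.6 CPM with the siRNAs, against 100.0 CPM in the control. MRPS18C, the paralog found at the bacterial S18 position, was at 2.41 and 2.59 CPM, against 3.23 CPM. Per kilobase of transcript the control levels were 33.5 CPM for MRPS18A, 65.3 for MRPS18B and 1.96 for MRPS18C. The order A below B and above C was the same in the siRNA libraries, and MRPS18A and MRPS18C are overlapped by other genes over 56.9% and 78.9% of their main transcripts. In each of the paralogs both siRNA libraries lay below the control, the ratios differing most for MRPS18A (−0.24 with siRNA 1 and −0.59 with siRNA 2).

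On the higher side of the small subunit, MRPS10, the counterpart of bacterial S10, stood at 111.4 CPM (siRNA 1) and 123.0 CPM (siRNA 2), against 92.5 CPM in control cells. Both siRNA libraries lay above the control, at 121% (115 to 127) and 133% (127 to 140). MRPS33, a protein without a bacterial counterpart, was at 22.8 CPM (siRNA 1) and 35.8 CPM (siRNA 2), against 25.6 CPM in control cells, so the control lay between them. MRPS31 was likewise at 9.33 and 14.3 CPM, against 11.01 CPM.

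MRPS27, which contains RNA-binding pentatricopeptide repeats, went apart most in the other direction. It stood at 114.3 CPM (siRNA 1) and 75.2 CPM (siRNA 2), against 98.8 CPM in control cells. That is 116% (110 to 122) of the control with siRNA 1 and 76.1% (72.0 to 80.4) with siRNA 2.

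Among the large subunit genes, MRPL12 (ENSG00000262814) had the lowest mean ratio. It encodes the stalk protein, the counterpart of bacterial L7/L12, and is known to bind the mitochondrial RNA polymerase. It stood at 2.37 CPM (siRNA 1) and 2.45 CPM (siRNA 2), against 4.13 CPM in control cells, or 71, 73 and 124 read pairs. Another gene overlaps 68.2% of its main transcript, so the level is uncertain. MRPL34 was at 23.4 CPM (siRNA 1) and 30.3 CPM (siRNA 2), against 40.4 CPM in control cells. MRPL35 was at 15.3 and 17.4 CPM, against 23.5 CPM. Both are counterparts of small bacterial proteins, and neither main transcript is overlapped.

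The rest of the 10 lowest members by mean ratio were MRPL55, MRPL41, MRPL2, MRPL43 and the paralog MRPS18A described above. MRPL43 was at 31.8 CPM (siRNA 1) and 36.1 CPM (siRNA 2), against 44.6 CPM in control cells. MRPL2 and its bacterial counterpart lie near the peptidyl transferase centre. It stood at 22.4 CPM (siRNA 1) and 27.3 CPM (siRNA 2), against 32.9 CPM in control cells. MRPL41, at 28.01 and 34.6 CPM against 42.1 CPM, has the most GC-rich main transcript of all members (71.9%). With the GC trend of all genes removed, its log2 ratios were 0.02 and 0.03, against −0.57 and −0.28 as measured, so its direction depends on that correction. The ratio of MRPS18A with siRNA 1 also turned, to 0.03. The remaining 8 of the 10 lowest kept both signs.

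MRPL40 differed most between the siRNAs. It stood at 18.7 CPM (siRNA 1) and 38.2 CPM (siRNA 2), against 35.3 CPM in control cells. With siRNA 1 it was at 53.0% (47.7 to 58.8) of the control and with siRNA 2 at 108% (99.6 to 118). The siRNA 1 library alone was low. MRPL55 was at 22.6 CPM (siRNA 1) and 32.4 CPM (siRNA 2), against 36.9 CPM in control cells.

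MRPL45 (ENSG00000278845), a protein at the exit of the peptide tunnel that faces the inner membrane, had the highest mean ratio of all members. It stood at 99.4 CPM (siRNA 1) and 88.3 CPM (siRNA 2), against 63.2 CPM in control cells. Both siRNA libraries lay above the control, at 157% (148 to 167) and 139.7% (132 to 148) of it. The mean log2 ratio was 0.56 ± 0.12 (SD, n = 2 siRNAs), with an adjusted p of 0.992 in limma. Its pseudogene MRPL45P2 was also higher, at 6.55 and 7.29 CPM with the siRNAs, against 4.69 CPM in the control. Near-identical copies can share reads, so the split between the gene and the pseudogene is uncertain.

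MRPL46, MRPL53 and MRPL38, proteins without bacterial counterparts, followed as the next highest. MRPL46 was at 5.28 CPM (siRNA 1) and 5.17 CPM (siRNA 2), against 3.43 CPM in control cells. MRPL53 was at 8.42 and 5.74 CPM, against 4.92 CPM, and MRPL38 at 2.24 and 2.22 CPM, against 1.43 CPM. In all 3 genes both siRNA libraries lay above the control, and other genes overlap 71.1%, 52.3% and 67.8% of the main transcripts, in that order of genes. CCDC142, which overlaps MRPL53 on the same strand, stood at 47.7 CPM (siRNA 1) and 34.2 CPM (siRNA 2), against 36.5 CPM in control cells, so it too was highest with siRNA 1.

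MRPL42 stood at 120.7 CPM (siRNA 1) and 115.8 CPM (siRNA 2), against 92.2 CPM in control cells, and is overlapped over 1.81% of its transcript only. MRPL16, the counterpart of bacterial L16, was at 54.6 and 56.3 CPM, against 48.9 CPM. MRPL1 was at 15.1 and 18.2 CPM, against 13.8 CPM, and MRPL13 at 41.7 and 45.02 CPM, against 39.4 CPM. For MRPL1 with siRNA 1 the GC correction turned the log2 ratio, to −0.015 against 0.12 as measured.

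The level of the members spanned about the same range in every library. Values in CPM ran from 1.27 to 133.2 with siRNA 1, from 1.04 to 139.9 with siRNA 2 and from 1.23 to 147.3 in the control. Per kilobase of main transcript, the median member was at 27.2 CPM with siRNA 1, 30.1 with siRNA 2 and 31.9 in the control. The median over all tested genes was 7.38, 8.22 and 8.11 CPM per kilobase. The highest level per kilobase in the large subunit was that of MRPL24, which lines the exit of the peptide tunnel, at 97.9 with siRNA 1 and 93.2 with siRNA 2, against 117.5 in the control. MRPL20 followed at 73.6 and 79.3 with the siRNAs, against 95.9 in the control, then MRPL3 at 78.1 and 74.8, against 86.3. In all 3 both siRNA libraries lay below the control, and the order of MRPL20 and MRPL3 differed between libraries. Among the genes named for the small subunit the order was led by MRPS30, which sits in the large subunit in structures, at 77.5 and 83.4 CPM per kilobase with the siRNAs, against 84.2 in the control, then by MRPS34 at 73.1 and 76.8, against 69.6, and MRPS15 at 63.7 and 67.7, against 66.4. At the low end of the large subunit stood MRPL38 (1.19 and 1.17 with the siRNAs, against 0.758 in the control), MRPL12 and MRPL46.

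At the low end of the level, 7 members stood below 5 CPM in the control. They were MRPL12, MRPL38, MRPL46, MRPL53, MRPS18C, MRPS24 and MRPS28, and the next member up was at 7.62 CPM. All 7 were among the 8 members whose main transcript is overlapped over at least 50% by exons of other genes in GENCODE release 29. The exception was MRPS18A. For MRPS24, the counterpart of bacterial S3, the overlapping gene is the readthrough URGCP-MRPS24, over 85.7% of the transcript. MRPS24 stood at 1.27 CPM (siRNA 1) and 1.04 CPM (siRNA 2), against 1.23 CPM in control cells. MRPS28, the counterpart of bacterial S1, was at 1.97 and 2.86 CPM, against 2.46 CPM. The annotation the authors counted on is not given in the sources used here, and the part that overlap has in these low levels was not tested. Among all members, 47 had no overlap and 13 had overlap on their own strand.

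**Figure D3:**
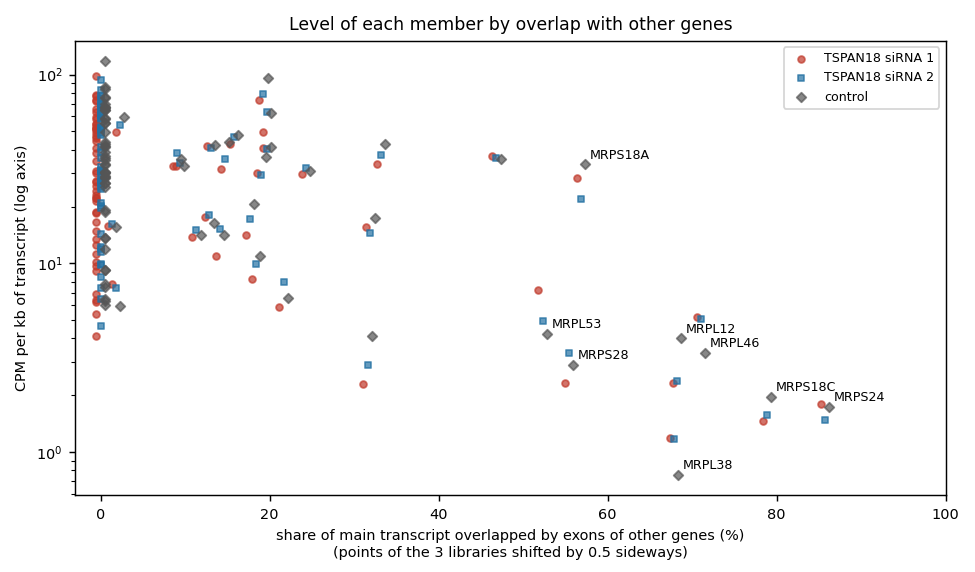
Level of each member in CPM per kilobase of main transcript (log axis) against the share of that transcript overlapped by exons of other genes (%), with circles for siRNA 1, squares for siRNA 2 and diamonds for the control. The 8 members overlapped over at least 50% are named; all but MRPS18A lie at the low end of the level.

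Members with GC-rich transcripts had lower ratios, as did GC-rich genes in general. Across the 78 members, the rank correlation (Spearman's rho) between log2 ratio and GC content was −0.30 with siRNA 1 and −0.33 with siRNA 2. Across 14163 tested genes it was −0.43 and −0.36. The points share the same libraries and are not independent. The 26 members with the highest GC content had medians of −0.29 with siRNA 1 and −0.16 with siRNA 2. The 26 with the lowest had −0.11 and 0.11. With the trend of all genes removed, the large subunit medians were −0.02 with siRNA 1 and 0.04 with siRNA 2, and the small subunit medians −0.07 and −0.02. What base composition contributes to the ratios was not tested.

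**Figure D4:**
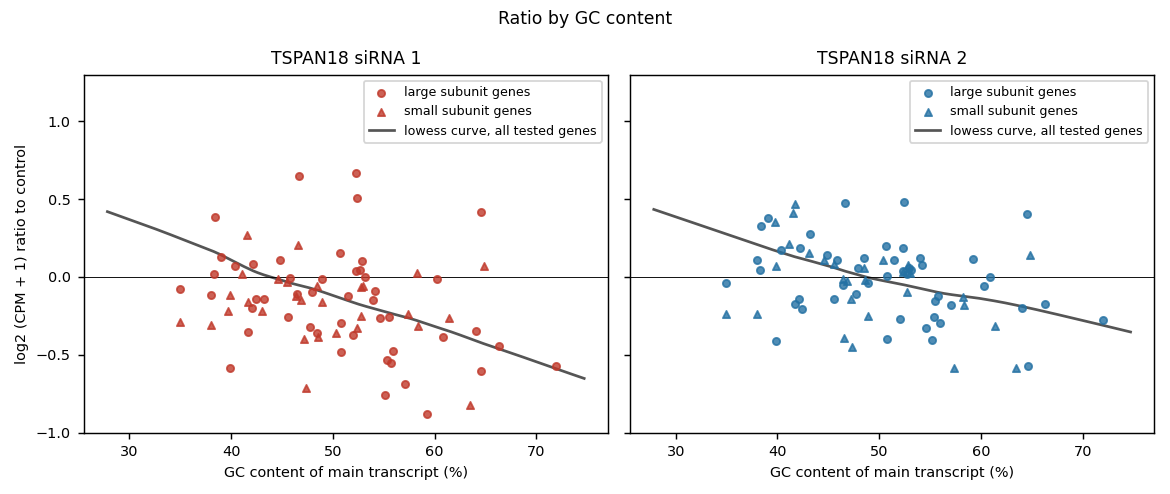
Log2 (CPM + 1) ratio of each member to the control against the GC content of its main transcript (%), with siRNA 1 on the left and siRNA 2 on the right; circles are large and triangles small subunit genes. The grey line is the lowess curve of all tested genes, and the members scatter about it with lower ratios at higher GC content.

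The ratio between the siRNAs does not use the control library. The median log2 ratio of siRNA 2 over siRNA 1 was 0.11 over the large subunit and 0.13 over the small subunit, beside 0.11 over all tested genes. At least 1.2-fold higher with siRNA 2 were 19 members (24.4%, beside 35.1% of all tested genes), and at least 1.2-fold lower were 3 (3.85%, beside 14.8%). On this scale no member was 2-fold apart, beside 2.85% and 0.818% of all genes, while in plain CPM MRPL40 was 2.05-fold higher with siRNA 2. The shift depends on the scaling. With median-of-ratios scaling the medians of siRNA 2 over siRNA 1 were −0.02 over the large and 0.0079 over the small subunit, with 10 members higher and 4 lower (25.8% and 23.5% of all genes). With the GC trend removed they were 0.02 and 0.02, with 11 members higher and 5 lower (24.5% and 24.1% of all genes).

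The list of mitoribosome subunits that carry other names had 6 tested genes, among them OXA1L, which is not a subunit but an inner-membrane insertase that binds the ribosome. The medians of the list were −0.05 with siRNA 1 and 0.02 with siRNA 2. AURKAIP1 stood at 78.8 CPM (siRNA 1) and 77.6 CPM (siRNA 2), against 98.9 CPM in control cells, so both siRNA libraries were lower. DAP3, a GTP-binding protein of the small subunit, was at 219.8 and 299.6 CPM, against 218.4 CPM, so that the siRNA 2 library was the highest. OXA1L was at 54.0 and 51.5 CPM, against 58.5 CPM. No gene of any list below passed limma over all genes.

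The lists of other genes of mitochondrial translation had medians near that of all genes. The 29 tested assembly factors had medians of −0.11 with siRNA 1 and 0.01 with siRNA 2. MPV17L2 was at 14.1 and 19.99 CPM, against 26.98 CPM, and MRM1, a methyltransferase of the large ribosomal RNA, at 12.5 and 20.7 CPM, against 25.1 CPM. LYRM7, which is in the list although it is known for the assembly of respiratory complex III, was at 25.04 and 26.8 CPM, against 16.2 CPM. The 18 translation factors and RNA modifiers had medians of −0.11 and 0.09, with the ribosome recycling factor GFM2 at 65.4 and 58.8 CPM, against 42.5 CPM, and the tRNA modifier GTPBP3 at 20.3 and 38.1 CPM, against 43.9 CPM. TRMU, another tRNA modifier, was at 44.4 and 43.3 CPM, against 55.6 CPM. The 20 mitochondrial aminoacyl-tRNA synthetases and amidotransferase subunits had medians of −0.11 and −0.04, with CARS2 at 46.8 and 38.3 CPM, against 65.2 CPM, NARS2 at 13.4 and 14.9 CPM, against 20.4 CPM, and MARS2 at 18.1 and 12.6 CPM, against 20.0 CPM.

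The 13 proteins encoded by mitochondrial DNA, which this ribosome translates, had medians of −0.01 with siRNA 1 and 0.16 with siRNA 2. Their summed level was 57608 CPM (siRNA 1) and 63175 CPM (siRNA 2), against 60245 CPM in control cells, so that the control lay between the siRNA libraries. MT-RNR2, the RNA of the large subunit, stood at 12869 and 14107 CPM, against 11191 CPM in the control. MT-RNR1, the RNA of the small subunit, was at 1012 and 937.1 CPM, against 1041 CPM. MT-ND1 stood at 4509 and 4896 CPM, against 3931 CPM, and MT-ATP8 at 16.5 and 35.6 CPM, against 30.7 CPM.

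Among 14 transcriptional regulators of mitochondrial genes, the medians were 0.01 with siRNA 1 and −0.07 with siRNA 2. GABPA, an ETS factor known to act on nuclear genes of mitochondrial proteins, stood at 69.7 CPM (siRNA 1) and 63.0 CPM (siRNA 2), against 41.6 CPM in control cells. ESRRA, an orphan nuclear receptor, was at 27.04 and 35.7 CPM, against 50.3 CPM, and the coactivator PPARGC1B at 14.2 and 13.9 CPM, against 22.7 CPM. YY1 was at 237.1 and 198.3 CPM, against 183.5 CPM, and NRF1 at 24.6 and 22.7 CPM, against 24.3 CPM; both were picked because their letters were searched for above.

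The 75 tested cytosolic ribosomal protein genes had medians of −0.27 with siRNA 1 and −0.10 with siRNA 2, below those of the mitochondrial ribosomal proteins in both libraries. At least 1.2-fold lower with siRNA 1 were 38 of the 75, beside 35.1% of all tested genes, and 1 was higher, beside 18.3%. With siRNA 2, 9 were lower, beside 22.2% of all, and 0 higher, beside 23.2%. RPL10 stood at 88.6 and 167.6 CPM with the siRNAs, against 201.4 CPM in the control, RPL14 at 181.1 and 148.1 CPM, against 245.2 CPM, and RPL31 at 56.2 and 117.0 CPM, against 116.8 CPM. Whether the families differ was not tested, since genes are not replicates.

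**Figure D5:**
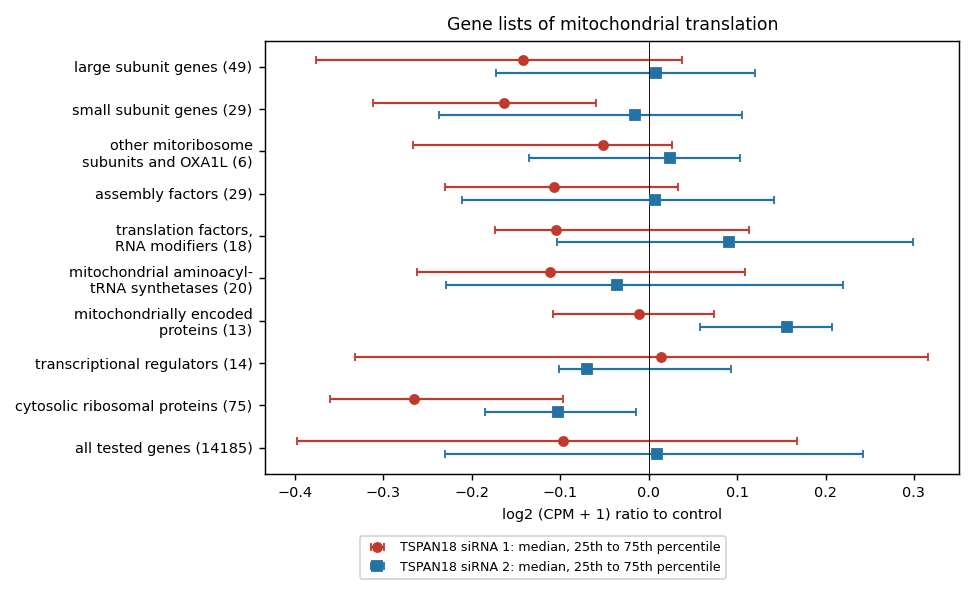
Median (points) and 25th to 75th percentile (bars) of the log2 (CPM + 1) ratio to the control over the genes of each list, for siRNA 1 (circles) and siRNA 2 (squares), with the number of tested genes in brackets. The lists of mitochondrial translation overlap the range of all tested genes at the bottom; cytosolic ribosomal proteins have the lowest medians, −0.27 and −0.10.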

How the data were processed

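RNA from 3 DU145 libraries was sequenced as 100-bp paired reads. Per the submitters' processing notes the tools were bcl2fastq 2.19.1, HISAT2 2.1.0 and HTSeq 0.6.1, with hg19; neither strand setting nor annotation release is given in the sources used here. The authors deposited CPM values per gene, and 100% of them were whole reads within 0.001 read, nearly all even, so each pair counts as 2 reads. The tables differ in genes listed: 22773 are shared, 1040 are only in the control and siRNA 1 tables and 1222 only in the siRNA 2 table.

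Testing took genes averaging 1 CPM or more over the libraries, on log2(CPM + 1) with limma 3.58.1, both siRNA libraries against the control, with Benjamini-Hochberg adjustment. The siRNAs are taken as 2 samples of 1 group, and p-values measure only the spread between these libraries. edgeR 4.0.16 and DESeq2 1.42.0 on the recovered read pairs, other scalings, pseudocounts and filters, a GC correction and leaving out each siRNA were alternatives. Overlap, length and GC content come from the main transcripts of GENCODE release 29. Intervals are 95% exact binomial intervals. The members, lists and named genes were chosen with earlier results of these data known. Named were the 10 highest and 10 lowest members by mean ratio, the 4 farthest each way between the siRNAs, the 3 highest and lowest by level in each subunit, the MRPS18 paralogs, and up to 3 genes of each list by absolute mean ratio.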

Additional observations from a re-analysis of the deposited data

How the results depend on the processing

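No paired analysis was possible because the siRNA and control groups share fewer than 2 replicate numbers. With 1 control library and 2 siRNA libraries, a change of a member of the size seen here cannot be told from a difference between libraries. Median-of-ratios scaling gave siRNA 1 medians of −0.0302 for the large and −0.0550 for the small subunit, 17 members at least 1.2-fold lower with siRNA 1, beside 27.3% of all genes, and 1 gene called by limma. The gene so called was TSPAN18, the target. TMM scaling gave 18 members lower with siRNA 1, beside 28.1% of all genes. With the GC trend removed, the large subunit median with siRNA 1 was −0.0249, and 18 members were lower, beside 24.6% of all genes. DESeq2 called 13 genes. An alternative chosen after seeing the data took the 65 members without same-strand overlap. Of these, 2 were at least 1.2-fold higher with siRNA 1 and 5 with siRNA 2. Of the 13 members with such overlap, 4 were higher with siRNA 1 and 4 with siRNA 2. Among all tested genes 18.3% and 23.2% were higher. At least 1.2-fold lower were 26 and 11 of the 65, and 2 and 2 of the 13, beside 35.1% and 22.2% of all tested genes. Among the named members, the mean log2 ratio of MRPS15 turned to 0.0350 with DESeq2, 0.0288 with edgeR and 0.0344 with median-of-ratios scaling. That of MRPS27 turned to 0.0043 with DESeq2, and that of MRPS28 to 0.013 with DESeq2, 0.0083 with edgeR and 0.00165 with median-of-ratios scaling. Members outside the named set turned as well. MRPL10 was one, at 0.040 with DESeq2, 0.034 with edgeR and 0.037 with median-of-ratios scaling, against −0.013 in CPM as deposited. For these changes the cause was not tested. No member passed the threshold under any setting run, and its smallest adjusted p ranged over the settings between 0.798 and 1.00.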
